A study of Mus musculus with 6 samples.

Results

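Nuclear receptors are transcription factors, many of them switched by a fat-soluble ligand, and coregulators are the proteins they recruit to raise or lower transcription. This account covers 38 genes of these classes among the 46983 genes of a count table from mouse liver. They were taken by name: 33 receptors of the lipid, bile acid, xenobiotic, hormone, vitamin and orphan classes, and 5 coregulators, all of which had a row in the table. The livers came from mice with a hepatocyte-specific knockout of AEG-1 or from control mice. AEG-1 (astrocyte elevated gene 1, symbol Mtdh, also called metadherin) is a membrane and nuclear protein that carries an LXXLL sequence of the kind by which coactivators bind nuclear receptors, and it has been reported to bind retinoid X receptor and to interfere with receptor signalling. The comparison therefore asks how the liver's set of receptors and coregulators is expressed when AEG-1 is removed from hepatocytes.

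All mice were of C57BL/6 background, were fed chow, received no treatment and were 12 weeks old when the liver was taken. There were 3 knockout livers, labelled AEG_1CKO, and 3 control columns, called AEG-1fl/fl in the series title and WT in the sample titles. The promoter that drives Cre in the knockout is not given in the sources used here. Cells other than hepatocytes keep the gene in such a knockout and contribute RNA to a whole-liver library. Control replicates 1 and 2 held the same count in every one of the 46983 rows. Separate libraries differ at least by sampling noise, so the 2 columns were taken to hold 1 library and entered as 1 sample. The comparison is 3 knockout livers against 2 controls, replicates 1 and 3. The labels name 3 mice per group, and no litter, day or batch. Because RNA came from bulk tissue, fewer cells of a type and less RNA per cell cannot be told apart.

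Most receptors of this family bind DNA as dimers or monomers at copies of the hexamer AGGTCA, and many pair with a retinoid X receptor. In the liver they form the sensing layer of metabolism. HNF4A maintains hepatocyte identity, PPAR-alpha turns on fatty acid oxidation in fasting, LXR-alpha answers to sterols, FXR and its target SHP restrain bile acid synthesis, and PXR and CAR induce drug-metabolising enzymes. Coactivators of the p160 family recruit histone acetylation to ligand-bound receptors, whereas NCoR1 recruits histone deacetylase to unliganded ones.

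Because receptors of this family also regulate each other, RefSeq promoter windows of the members were searched for the hexamer. Each window runs from 250 bases before to 50 bases after an annotated transcription start in build GRCm38.p6. Windows were given for 34 members, 51 windows in all, and none was given for Ncoa2, Ncoa3, Nr3c1 and Thra. AGGTCA, on either strand and with overlaps counted, was present in 9 of the 51 member windows (17.65%), against 5340 of all 32851 windows (16.26%), so the share of member windows was close to the share of all windows. The 9 windows belonged to 8 members: Nr1h4, Nr5a2, Nr6a1, Pparg, Rara, Rarg, Rxrg and Thrb. The windows below are those of Pparg, Nr1h4 and Rxrg in which the hexamer is present. These genes are shown because they are among the 6 members with the smallest p in the comparison that follows. All are written 5′ to 3′ on the gene's own strand, and the capitals mark AGGTCA or its reverse complement TGACCT. The 2 Pparg windows with the hexamer are at chr6:115360894-115361193 and chr6:115362099-115362398, both on the plus strand. The first base of the hexamer is at positions -28 and -9 from their start sites. That of Nr1h4 is at chr10:89506609-89506908 on the minus strand, with the hexamer's first base at position -214. The Rxrg window with the hexamer is at chr1:167618015-167618314 on the plus strand, with the hexamer's first base at position -88. A further window of Pparg, at chr6:115421816-115422115, and a further window of Rxrg, at chr1:167598112-167598411, do not hold the hexamer.
Pparg, first window: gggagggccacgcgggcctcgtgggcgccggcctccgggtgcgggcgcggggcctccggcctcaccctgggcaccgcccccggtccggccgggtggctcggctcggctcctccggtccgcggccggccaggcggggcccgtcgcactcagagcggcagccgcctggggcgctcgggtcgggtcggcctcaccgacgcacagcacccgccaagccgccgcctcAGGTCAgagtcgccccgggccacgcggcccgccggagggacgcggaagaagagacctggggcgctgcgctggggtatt
Pparg, second window: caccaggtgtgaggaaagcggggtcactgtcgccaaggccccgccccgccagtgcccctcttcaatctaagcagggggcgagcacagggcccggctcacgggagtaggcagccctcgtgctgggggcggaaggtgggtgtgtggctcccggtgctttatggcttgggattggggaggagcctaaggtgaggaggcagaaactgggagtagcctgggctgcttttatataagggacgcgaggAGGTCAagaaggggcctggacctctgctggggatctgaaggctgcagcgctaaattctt
Nr1h4: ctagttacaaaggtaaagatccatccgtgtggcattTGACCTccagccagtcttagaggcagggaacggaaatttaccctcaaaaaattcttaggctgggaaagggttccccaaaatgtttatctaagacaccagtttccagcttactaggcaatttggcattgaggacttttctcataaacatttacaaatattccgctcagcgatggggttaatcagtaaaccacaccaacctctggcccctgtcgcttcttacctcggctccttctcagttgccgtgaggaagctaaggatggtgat
Rxrg: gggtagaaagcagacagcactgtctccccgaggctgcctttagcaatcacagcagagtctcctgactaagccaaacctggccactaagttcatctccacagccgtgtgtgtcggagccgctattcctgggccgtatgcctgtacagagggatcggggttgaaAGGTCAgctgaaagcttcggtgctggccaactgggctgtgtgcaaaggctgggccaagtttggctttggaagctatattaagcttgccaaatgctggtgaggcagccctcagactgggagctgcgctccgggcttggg
The Rxrg hexamer is preceded by AA, giving AAAGGTCA, the monomer element of the NR4A receptors. That octamer was present in 1 of the 51 member windows (1.96%) and in 495 of all windows (1.51%). A match of letters is a description of the window and not evidence that a receptor binds there.

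The labels were checked first on the targeted gene and on depth. The 3 knockout libraries held 29557477, 32335414 and 33685670 assigned counts and the 2 control libraries 30819997 and 30965664, so that 3 counts, the smallest number treated here as a floor, correspond to between 0.0891 and 0.1015 CPM, counts scaled to library size. Mtdh had 2.90, 2.23 and 2.37 CPM in knockout livers, against 48.0 and 54.6 CPM in control livers. It was lower in every knockout library, with a log2 fold change of -4.36 (SE 0.15) and an adjusted p of 0.000564 by edgeR's quasi-likelihood test with Benjamini-Hochberg adjustment over all 16441 genes kept by the count filter. Hepatocyte markers such as albumin were abundant in every library: 9 of 10 listed markers were matched by symbol and summed to between 84205 and 96672 CPM in knockout livers and between 77122 and 108291 CPM in control livers. Knockout replicate 1 stood apart in skeletal muscle markers: the 6 listed genes summed to 44.8, 1.18 and 1.94 TPM in knockout livers, against 1.27 and 1.52 TPM in control livers, and Acta1, the skeletal actin gene, had 300 counts there and 1 to 3 counts in the other libraries. Without that library 18 of 37 members had a positive fold change, 0 members were called, and Mtdh had a log2 fold change of -4.47. Values without it are given beside some results in which it was the highest library, such as Pparg, Ppara and Acot3. They are not given beside others, such as Nr1i3 and Fasn. The part of muscle RNA in any of these results was not tested.

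The levels of the members ran in a similar order in both genotypes. Levels between genes are given in TPM, a length-scaled unit that divides counts by exon length, and each mean is over 3 knockout or 2 control libraries. Hnf4a, the receptor that holds the hepatocyte programme, stood at 253 ± 20.9 TPM in knockout livers and 239 ± 22.4 TPM in control livers (SD), above every other member in each of the 5 libraries. It made up 24.7% of the summed TPM of the members in knockout livers and 25.9% in control livers. Nr1h4, encoding the bile acid receptor FXR, was second in every library, with 167 ± 28.3 TPM in knockout livers and 121 ± 5.15 TPM in control livers. The next places went to Ppara (PPAR-alpha, 90.2 ± 28.4 TPM in knockout livers and 82.7 ± 8.54 TPM in control livers) and Nr1h3 (LXR-alpha, 86.2 ± 6.52 TPM in knockout livers and 88.1 ± 16.9 TPM in control livers), whose order varied between libraries and which cannot be separated beyond their spread. They were followed by Nr1i2 (PXR) at 67.4 ± 12.9 TPM in knockout livers and 56.8 ± 6.84 TPM in control livers, and by Nr0b2 (SHP, a receptor without a DNA-binding domain that represses others) at 45.3 ± 10.9 TPM in knockout livers and 40.6 ± 17.8 TPM in control livers. These 6 genes held 69.2% of the members' TPM in knockout livers and 68.0% in control livers.

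Below these 6, levels ran close together. Nr1i3, encoding CAR, averaged 38.5 ± 11.5 TPM in knockout livers and 22.3 ± 10.6 TPM in control livers, and the glucocorticoid receptor gene Nr3c1 averaged 31.0 ± 3.44 TPM in knockout livers and 33.4 ± 1.19 TPM in control livers. Esrra, encoding the oestrogen-related receptor alpha of mitochondrial gene control, averaged 27.0 ± 6.93 TPM in knockout livers and 22.8 ± 1.82 TPM in control livers. Nr5a2, encoding LRH-1 of bile acid synthesis, averaged 20.8 ± 4.28 TPM in knockout livers and 22.1 ± 4.71 TPM in control livers. The spreads of Nr1i3, Esrra and Nr5a2 overlapped in the control livers. In all, 18 members averaged 10 TPM or more in knockout livers and 17 in control livers, 17 in knockout livers and 18 in control livers lay from 1 to 10 TPM, and the same 3 genes, Nr2f1, Nr4a2 and Vdr, lay under 1 TPM in both. Of the 10 members highest in control livers, 9 were among the 10 highest in knockout livers. The rank by mean level differed by more than 3 places for 3 members: Pparg was number 18 in knockout livers and 25 in control livers, Nrip1 number 30 in knockout livers and 35 in control livers, and Nr4a1 number 35 in knockout livers and 29 in control livers.

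**Figure D1:**
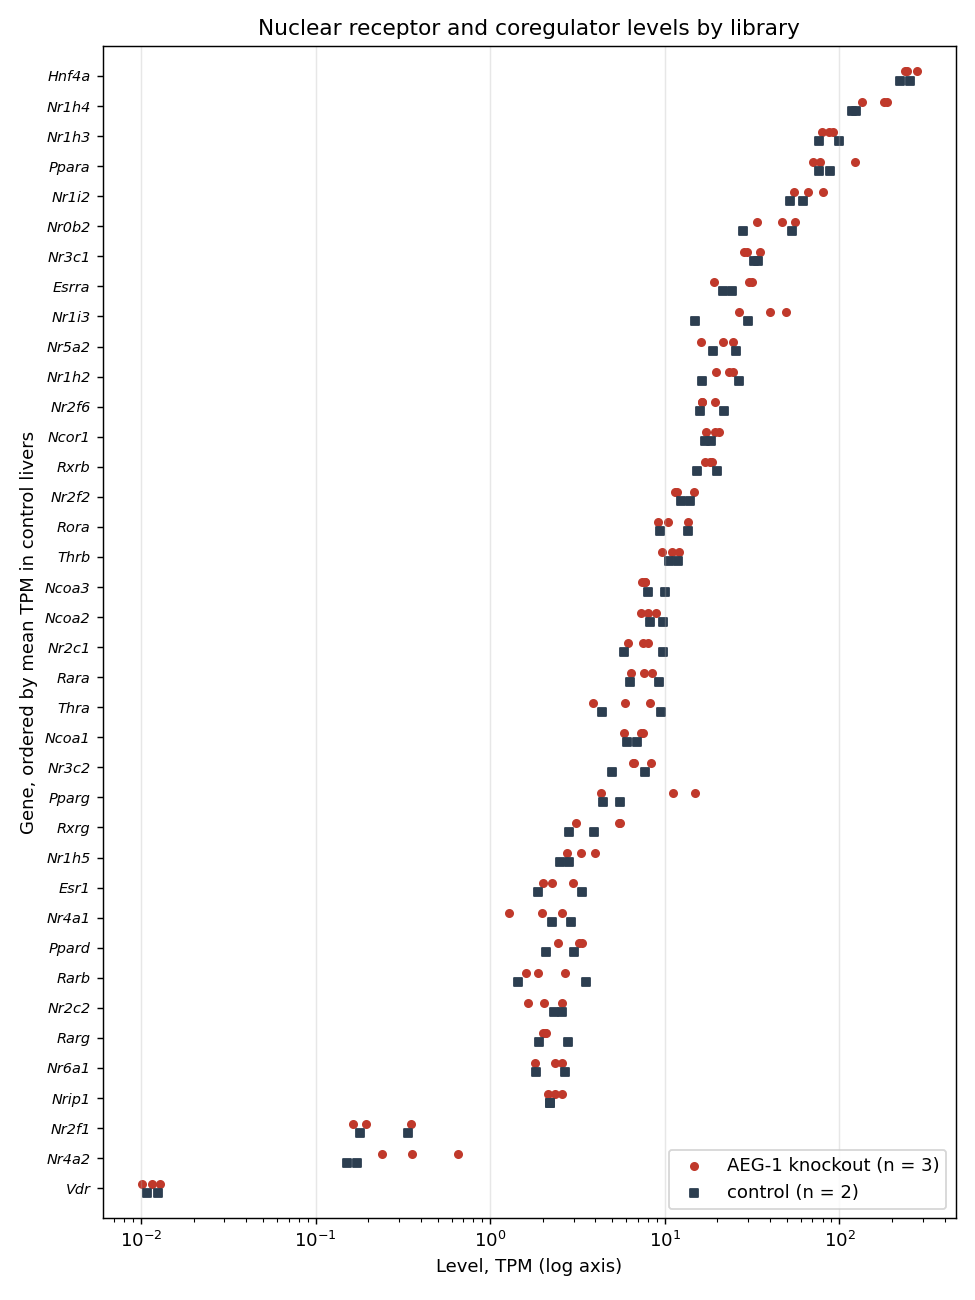
Levels of the 38 members in TPM on a log axis, ordered by their control mean, with each point 1 library (knockout points drawn above control points for each gene). Hnf4a is highest in all 5 libraries, and Nr2f1, Nr4a2 and Vdr lie under 1 TPM in both genotypes.

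No member passed the test for a difference between genotypes. All 37 members that the low-count filter kept had an adjusted p of 1 by edgeR (0 of 37 called, against 1 of 16441 genes, or 0.00608%, which is Mtdh itself), and DESeq2 also called 0 members, against 19 genes or 0.116% of all. At an unadjusted p under 0.05, 1 member was counted, Nr4a2, which was higher in knockout livers. The share of all genes was 3.43%, made up of 1.63% higher and 1.8% lower in knockout livers. The 37 log2 fold changes, knockout over control, were positive for 17 members and negative for 20, with a median of -0.04, beside a median of 0.01 and 52.1% positive over all genes. They ran from -0.45 for Nr4a1 to 1.30 for Nr4a2. The libraries of the 2 genotypes did not overlap in CPM for 3 members, Nr4a2 (higher in knockout livers) and Ncoa2 and Ncoa3 (lower), which is 8.11% of members, beside 16.9% of all genes (8.16% higher and 8.72% lower in knockout livers). For 31 members (83.8%) the 95% confidence interval of the fold change lay within 2-fold of no change, beside 74.8% of all genes, and for 21 (56.8%) it lay within 1.5-fold, beside 46.6%. The median interval, which is not adjusted for the number of genes, reached 0.38 on the log2 scale to either side for members and 0.46 for all genes.

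**Figure D2:**
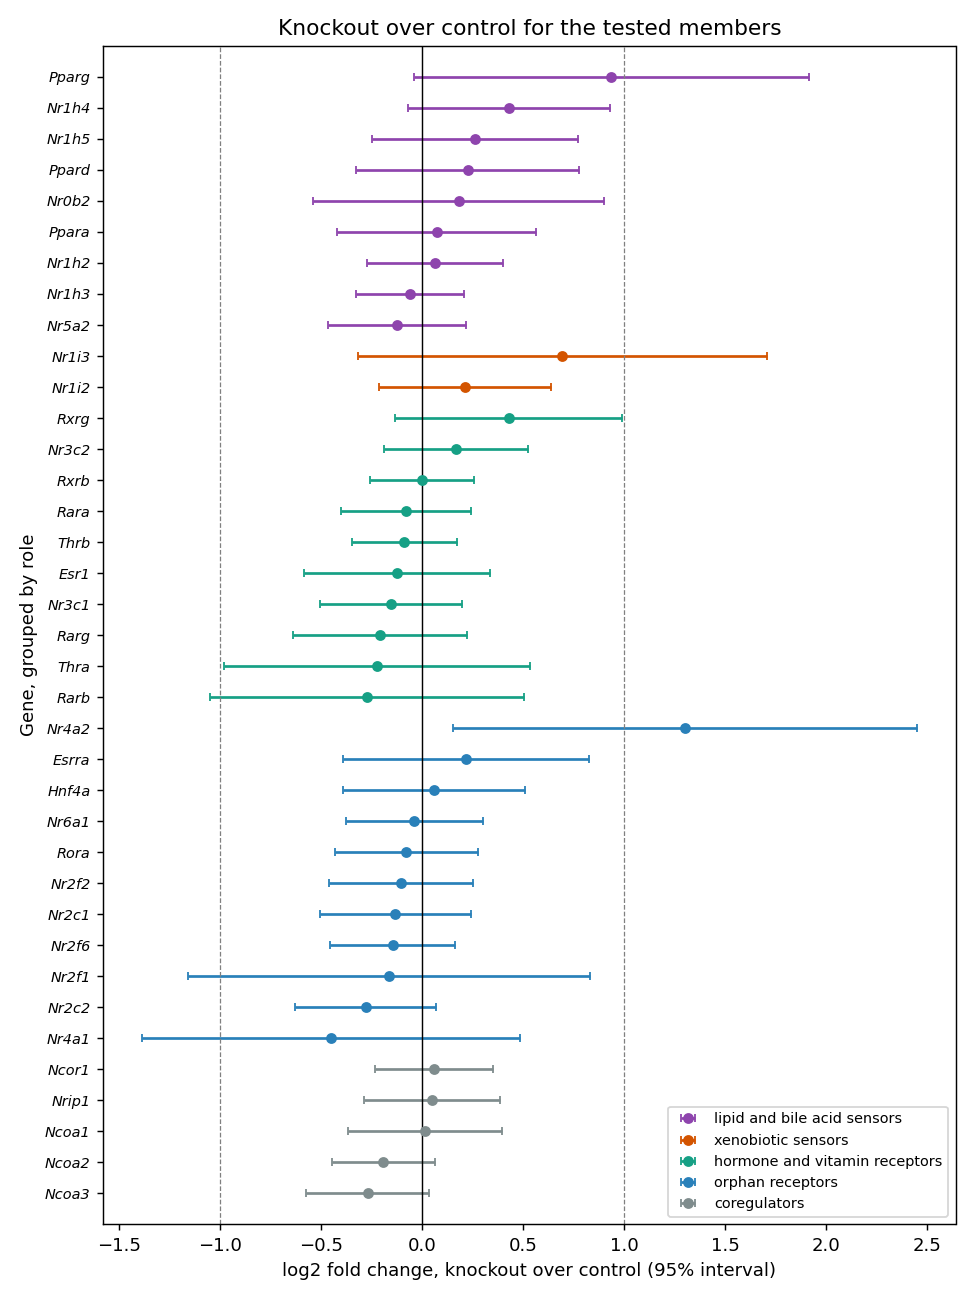
Log2 fold change of each of the 37 tested members, knockout over control, with bars for the 95% confidence interval and members grouped by role. The points lie between -0.45 and 1.30, and only the interval of Nr4a2 leaves out 0 without adjustment for the number of genes tested.

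Among the receptors for lipids and bile acids, 7 of 9 members had a positive fold change and 2 a negative one, with a median log2 fold change of 0.18, and none passed the test. The gene with the largest difference was Pparg, encoding PPAR-gamma, the receptor of fat storage that is low in lean liver and abundant in adipose tissue. Pparg had 19.7, 15.4 and 6.91 CPM in knockout livers, against 7.35 and 7.28 CPM in control livers. Knockout replicates 1 and 2 were above both controls and replicate 3 was just below them, so the groups overlapped. The log2 fold change was 0.94 (SE 0.41, unadjusted p = 0.0582, adjusted p = 1 by edgeR), and it was 0.61 without knockout replicate 1 and 1.26 without knockout replicate 3.

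Adipocyte markers were set beside Pparg, since that gene is abundant in fat cells. The 4 of 7 listed markers that were kept summed to 23.9, 31.8 and 11.4 CPM in knockout livers, against 12.2 and 13.9 CPM in control livers, while the defining adipocyte genes Adipoq, Plin1 and Lep had at most 1 count in any library. Of the kept markers, 3 had a positive log2 fold change: Cfd (1.58, SE 0.71), Plin4 (1.21, SE 0.49) and Cidea (1.13, SE 0.49). In these 3, as in Pparg, knockout replicates 1 and 2 were above both controls and replicate 3 was below the higher control. Fabp4, a fatty acid carrier of adipocytes, had a value of -0.06 (SE 0.26). None of the kept markers passed edgeR's test. Their part in the Pparg value was not tested.

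Nr1h4 (FXR) had 193, 144 and 226 CPM in knockout livers, against 129 and 151 CPM in control livers. Knockout replicate 2 lay between the controls on this scale, although in TPM the lowest knockout value, 135, was above the highest control value, 125. The log2 fold change was 0.43 (SE 0.21, unadjusted p = 0.0816), and it did not pass. The partner of FXR in bile acid feedback, Nr0b2, had 23.8, 17.8 and 34.2 CPM in knockout livers, against 26.9 and 17.6 CPM in control livers, a spread within each group larger than the difference between them (log2 fold change 0.18, SE 0.30).

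Ppara had 211, 137 and 148 CPM in knockout livers, against 152 and 163 CPM in control livers. Only knockout replicate 1 was above the controls, and the log2 fold change was 0.07 (SE 0.21, 95% interval -0.42 to 0.56), or -0.14 without that library. Nr1h3 (LXR-alpha) was among the steadiest members, with 104, 102 and 109 CPM in knockout livers, against 113 and 107 CPM in control livers. Its log2 fold change was -0.06 (SE 0.11, interval -0.33 to 0.20), an interval that lies within 1.5-fold of no change. Nr1h5, encoding FXR-beta, which responds to lanosterol in mice, had 5.05, 4.38 and 4.25 CPM in knockout livers, against 3.17 and 4.44 CPM in control livers (log2 fold change 0.26, SE 0.21). Nr5a2 had 57.4, 67.4 and 51.9 CPM in knockout livers, against 67.1 and 61.5 CPM in control livers (log2 fold change -0.13, SE 0.14). The remaining members of this class, Ppard (PPAR-delta) and Nr1h2 (LXR-beta), had log2 fold changes of 0.22 (SE 0.23) and 0.06 (SE 0.14).

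Both xenobiotic sensors had positive fold changes that did not pass the test. Nr1i3 (CAR) had 97.7, 54.3 and 96.0 CPM in knockout livers, against 29.2 and 73.0 CPM in control livers. The controls differed from each other 2.5-fold, more than the genotypes did, and the groups overlapped. The log2 fold change of 0.69 (SE 0.42) was 0.17 without control replicate 1 and 1.5 without control replicate 3. Nr1i3 also shares 74.9% of its exon bases (3304 of 4414) with Tomm40l on the opposite strand, a gene at 16.3, 9.05 and 13.9 CPM in knockout livers and 9.01 and 13.9 CPM in control livers, and the strand setting of the counting is not given in the sources used here, so reads of the 2 genes cannot be told apart. Nr1i2 (PXR) had 92.8, 65.5 and 92.2 CPM in knockout livers, against 70.4 and 73.7 CPM in control livers, with knockout replicate 2 lowest of all 5 libraries (log2 fold change 0.21, SE 0.18).

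Of the 10 tested receptors for hormones and vitamins, 2 had positive and 8 negative fold changes, with a median of -0.11, and none passed. Their CPM summed to 262, 248 and 263 in knockout livers, against 276 and 273 in control livers, so that every knockout library lay below both controls by a small margin, whereas the sums in TPM overlapped. The sum is dominated by Nr3c1, the glucocorticoid receptor gene, which had 116, 97.9 and 120 CPM in knockout livers, against 114 and 135 CPM in control livers (log2 fold change -0.16, SE 0.15). The positive values were those of Nr3c2, the mineralocorticoid receptor gene (0.17, SE 0.15), and Rxrg, the retinoid X receptor gamma. Rxrg had 5.67, 5.94 and 3.87 CPM in knockout livers, against 4.05 and 3.62 CPM in control livers. As with Pparg, replicates 1 and 2 were above both controls and replicate 3 was not (log2 fold change 0.43, SE 0.23, and 0.355 without knockout replicate 1). The windows printed above for both genes were picked for holding the hexamer, and each gene also has a window without it. Of all windows, 16.26% hold it.

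The retinoic acid receptors all had negative fold changes. Rarg had 3.84, 3.92 and 4.50 CPM in knockout livers, against 5.12 and 4.34 CPM in control livers (log2 fold change -0.21, SE 0.18). Rara and Rarb had log2 fold changes of -0.08 (SE 0.13) and -0.28 (SE 0.32), and 59.0% of the exon bases of Rarb lie opposite Top2b. Rxrb, the other retinoid X receptor gene among the members, showed the smallest difference of all, with a log2 fold change of 0.00 (SE 0.11, interval -0.26 to 0.26). Thyroid hormone receptor beta, Thrb, the main form in hepatocytes, differed by -0.09 on the log2 scale (SE 0.11), and Thra, the alpha form, by -0.23 (SE 0.32). For Esr1, the oestrogen receptor alpha gene, the value was -0.13 (SE 0.19). Vdr, the vitamin D receptor gene, had 1 count in each of the 5 libraries and was not tested. That lies under the floor of 3 counts, so no fold is given.

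Among the 11 orphan receptors, 3 had positive and 8 negative fold changes, with a median of -0.11, and none passed. Hnf4a had 528, 536 and 730 CPM in knockout livers, against 550 and 599 CPM in control livers. Knockout replicate 3 was above both controls and replicates 1 and 2 were below them (log2 fold change 0.06, SE 0.19, interval -0.39 to 0.51). Esrra had 35.9, 22.5 and 42.2 CPM in knockout livers, against 27.4 and 30.4 CPM in control livers, with knockout replicate 2 again the lowest (log2 fold change 0.22, SE 0.25). Nr2c2, encoding the testicular receptor TR4, had 17.2, 14.2 and 13.4 CPM in knockout livers, against 17.1 and 19.2 CPM in control livers. Knockout replicate 1 lay just above the lower control, so the groups overlapped (log2 fold change -0.28, SE 0.15, unadjusted p = 0.0989), and 30.7% of its exon bases lie opposite Mrps25. The others, Nr2c1, Nr2f1, Nr2f2, Nr2f6, Nr6a1 and Rora, had log2 fold changes between -0.17 (Nr2f1, SE 0.41) and -0.04 (Nr6a1, SE 0.14). Of the exon bases of Nr2f6, 54.4% lie opposite Ocel1, and 13 members in all share exon bases with a gene on the opposite strand.

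The NR4A receptors are immediate early genes, which cells switch on within minutes of a stimulus, and the 2 members of this kind differed in direction. Nr4a2 had 0.651, 1.24 and 0.531 CPM in knockout livers, against 0.314 and 0.339 CPM in control livers. These values rest on 20, 41 and 17 counts in knockout livers and 10 and 10 counts in control livers. Every knockout library was above both controls, with a log2 fold change of 1.30 (SE 0.48, unadjusted p = 0.0318, adjusted p = 1 by edgeR), which was 0.85 without knockout replicate 2. Nr4a1 had 2.18, 1.48 and 3.47 CPM in knockout livers, against 2.51 and 4.0 CPM in control livers, and the groups overlapped (log2 fold change -0.45, SE 0.39). Of 7 other immediate early genes that were kept, 1 had a positive and 6 a negative fold change, with a median of -0.41. Their sum was 50.7, 53.8 and 96.0 CPM in knockout livers, against 118 and 101 CPM in control livers, lower in all 3 knockout libraries, although the sums in TPM overlapped. None of the 7 passed edgeR's test, and DESeq2 called 1, the growth-arrest gene Btg2 (log2 fold change -0.86, SE 0.16, DESeq2 adjusted p 0.0218). Their part in the NR4A values was not tested.

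**Figure D3:**
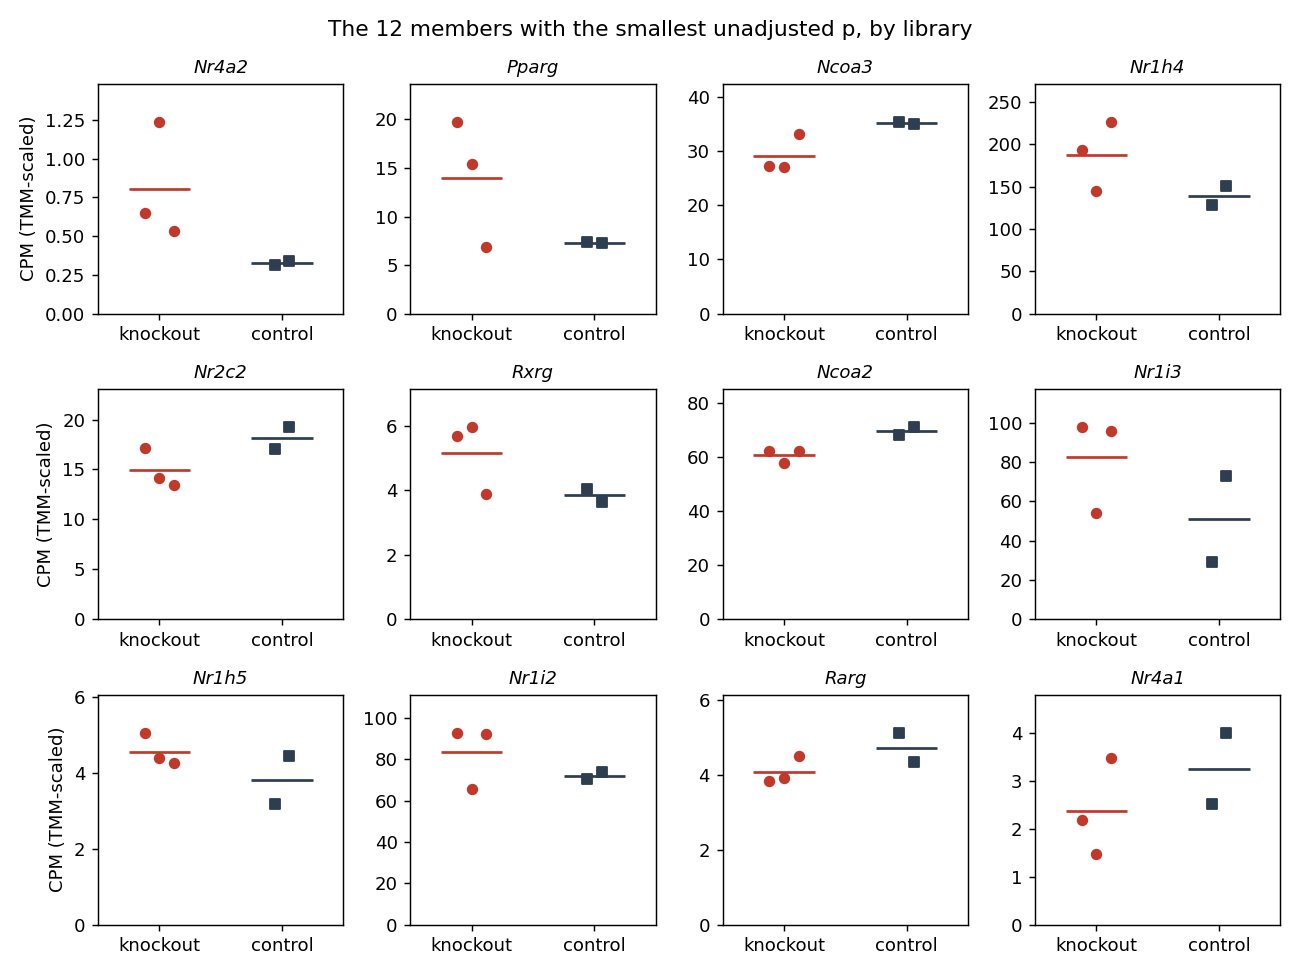
CPM per library for the 12 members with the smallest unadjusted p, with knockout points left of control points in each panel and horizontal bars for the group means. Only Nr4a2, Ncoa3 and Ncoa2 have groups that do not overlap, and Pparg and Rxrg show 2 knockout livers above and 1 near the controls.

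For all 5 coregulators the 95% interval lay within 1.5-fold of no change, and none passed the test. Ncoa3, encoding the p160 coactivator SRC-3, had 27.2, 27.0 and 33.2 CPM in knockout livers, against 35.4 and 34.9 CPM in control livers. Ncoa2, encoding SRC-2, had 62.3, 57.9 and 62.2 CPM in knockout livers, against 68.0 and 71.0 CPM in control livers. In CPM every knockout library was below both controls for both genes. The log2 fold changes were -0.27 (SE 0.13, unadjusted p = 0.0719 by edgeR) for Ncoa3 and -0.19 (SE 0.11, unadjusted p = 0.115 by edgeR) for Ncoa2. In TPM the groups did not overlap for Ncoa3 but overlapped for Ncoa2. Of the others, Ncoa1, encoding SRC-1, differed by 0.01 on the log2 scale (SE 0.16), the corepressor gene Ncor1 by 0.06 (SE 0.12), and Nrip1, encoding the corepressor RIP140, by 0.05 (SE 0.14).

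Several members are known from cells other than hepatocytes, such as Nr2f2 (COUP-TFII) in endothelium and Rarb in stellate cells, and markers of those cells were therefore set beside them. Of 12 sinusoidal endothelial markers, 11 had a negative fold change, with a median of -0.29, and they summed to 351, 276 and 262 CPM in knockout livers, against 333 and 395 CPM in control livers. The groups did not overlap for 6 of the 12 (50%), all lower in knockout livers, beside 8.72% of all genes. Of 10 stellate cell markers, 8 were negative, summing to 390, 338 and 287 CPM in knockout livers, against 356 and 363 CPM in control livers. Of 13 Kupffer cell and macrophage markers, 12 were negative, summing to 446, 364 and 387 CPM in knockout livers, against 397 and 507 CPM in control livers. Their median of -0.17 was 0.02 without control replicate 3. The groups overlapped for all 13 of these. They did not overlap for 2 of the 10 stellate cell markers (20%), 1 higher and 1 lower in knockout livers, beside 16.9% of all genes. None of these markers passed edgeR's test, the value of Nr2f2 was -0.11 on the log2 scale (SE 0.15), and the part of these cells in the members' values was not tested.

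The spread between livers of 1 genotype was as large as most differences between genotypes. For 25 of 37 members (67.6%) the 2 controls lay further apart on the log2 scale than the group means did, beside 66.7% of all genes. The highest knockout library exceeded the lowest by more than 1.5-fold for 12 members (32.4%, beside 29.1% of all genes). Knockout replicate 2 was the lowest knockout library for 19 members (51.4%), beside 34.9% of all genes, and for 8 of the 10 members with the highest levels in control livers.

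**Figure D4:**
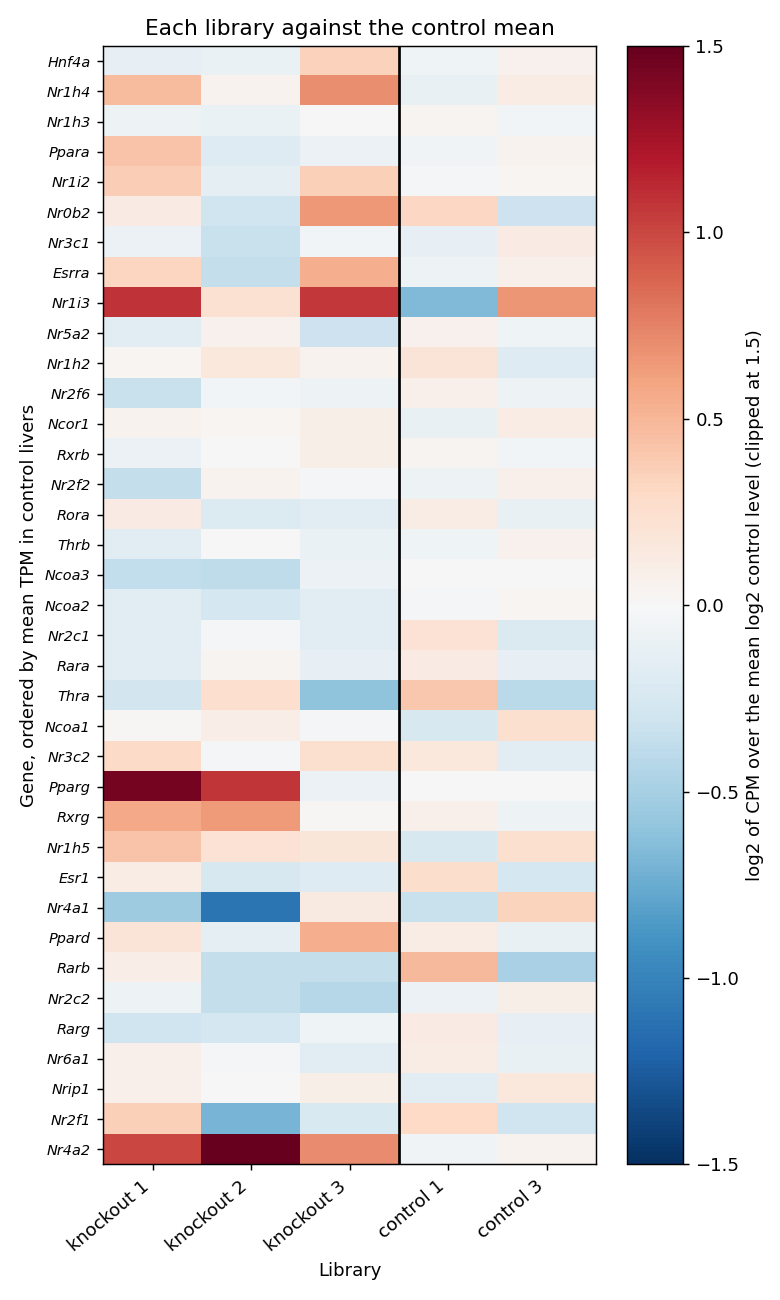
Log2 of each member's CPM in each of the 5 libraries relative to the mean log2 level of the controls, with the knockout columns left of the control columns. The second knockout column is low for Nr1i2, Esrra and Nr0b2, and the first control column is lowest for Nr1i3.

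The members' known targets were set beside them: 9 target lists and 2 lists of further receptors and coregulators were read from the same fit. No gene of these lists passed edgeR's test, and DESeq2 called 1, Fasn. The largest imbalance in direction was in the PPAR-alpha targets, enzymes of fatty acid oxidation and transport: 30 of 31 tested genes had a positive fold change, with a median log2 fold change of 0.53, while 52.1% of all genes were positive. Without knockout replicate 1, 27 of the 31 were positive and the median was 0.38, and without knockout replicate 3 the median was 0.74. The list summed to 17813, 17307 and 13173 CPM in knockout livers, against 11839 and 13628 CPM in control livers. In this sum knockout replicate 3 lay between the controls. The groups did not overlap in CPM for 7 of the 31 (22.6%), all higher in knockout livers, beside 8.16% of all genes. Acot3, a peroxisomal acyl-CoA thioesterase, had 31.4, 3.86 and 8.97 CPM in knockout livers, against 2.01 and 1.49 CPM in control livers (log2 fold change 3.07, SE 0.92), and for Acot4, a related enzyme, the log2 fold change was 1.15 (SE 0.39). Without knockout replicate 1 these were 1.87 (SE 0.45) for Acot3 and 0.70 (SE 0.23) for Acot4. The receptor gene itself, Ppara, had a log2 fold change of 0.07.

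The LXR targets split 8 to 4, with a median of 0.18. Fasn, fatty acid synthase, had 1504, 1197 and 1253 CPM in knockout livers, against 586 and 601 CPM in control livers, and its log2 fold change of 1.15 (SE 0.17) had an adjusted p of 4.57e-09 by DESeq2 and of 0.970 by edgeR. That of Abcg5, a sterol exporter, was 0.26 (SE 0.17). Of 10 tested FXR targets, 6 were positive with a median of 0.08, which was -0.0086 without knockout replicate 3. The list also holds Cyp7a1 and Cyp8b1, both positive and both of bile acid synthesis, which FXR and SHP restrain. Its count and median therefore give no direction of FXR activity. Slc10a1, the bile acid uptake carrier NTCP, differed by 0.37 on the log2 scale (SE 0.14), and Abcb11, the bile salt export pump, by -0.33 (SE 0.22). The receptor gene itself, Nr1h4, had a log2 fold change of 0.43.

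The targets of PXR and CAR split 9 to 9, with a median of 0.07, which was -0.03 without either knockout replicate 1 or knockout replicate 3. Alas1, the rate-limiting enzyme of haem synthesis, had 713, 235 and 1218 CPM in knockout livers, against 171 and 270 CPM in control livers (log2 fold change 1.71, SE 0.64), with knockout replicate 2 between the controls. The log2 fold change of Ugt1a1, which conjugates bilirubin, was 0.39 (SE 0.21). Of 8 thyroid hormone receptor targets, 7 were positive with a median of 0.60 (0.29 without control replicate 1 and 1.00 without control replicate 3). The largest value was that of Hr, a corepressor gene (2.07, SE 0.85). Hr had 0.912, 2.11 and 0.281 CPM in knockout livers, against 0.283 and 0.237 CPM in control livers, and the groups overlapped. Klf9, a transcription factor also listed under the glucocorticoid receptor, was at -0.46 (SE 0.20). Of 16 glucocorticoid receptor targets, 9 were positive with a median of 0.15, which turned to -0.06 when knockout replicate 1 was left out and to -0.03 when control replicate 1 was. Igfbp1, a fasting-induced binding protein of insulin-like growth factors, differed by -0.75 (SE 0.27) and was lower in all 3 knockout libraries.

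Of 5 tested retinoic acid receptor targets, 1 was positive, and the median was -0.56. Cyp26b1, a retinoic acid hydroxylase, had 2.70, 3.83 and 0.750 CPM in knockout livers, against 12.3 and 2.13 CPM in control livers (log2 fold change -1.57, SE 0.81). Control replicate 1 was far above the other control. Without control replicate 1 the list's median was 0.18. Of 17 HNF4A targets, 12 were positive with a median of 0.07, and the 2 with the smallest p, Apoa2, an apolipoprotein (0.23, SE 0.16), and F12, a clotting factor (-0.20, SE 0.14), differed little. Of 8 targets of the ROR receptors, 7 were positive with a median of 0.38, which was -0.29 without knockout replicate 2. Log2 fold changes were 0.82 (SE 0.41) for Cry1, a clock repressor, and 0.43 (SE 0.36) for Cyp8b1, the enzyme that makes cholic acid.

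Of 13 further nuclear receptor genes, 4 had enough counts to be tested and 3 of these were positive. Esrrg, oestrogen-related receptor gamma, had 2.12, 2.96 and 2.97 CPM in knockout livers, against 0.973 and 1.86 CPM in control livers, all 3 knockout libraries above the controls (log2 fold change 0.92, SE 0.34, unadjusted p = 0.0315). Of 21 further coregulators, 11 were positive with a median of 0.02. The 2 with the smallest p were the PGC-1 coactivators, which drive oxidative and fasting genes together with PPAR-alpha and the oestrogen-related receptors. Ppargc1a had 11.7, 11.2 and 9.66 CPM in knockout livers, against 8.67 and 6.54 CPM in control livers (log2 fold change 0.51, SE 0.18, unadjusted p = 0.0248). Ppargc1b had 6.32, 5.55 and 6.06 CPM in knockout livers, against 11.6 and 6.54 CPM in control livers (log2 fold change -0.61, SE 0.25, unadjusted p = 0.0481). In CPM the groups did not overlap for either gene, in opposite directions, but in TPM they overlapped for both, and neither passed edgeR's test. Over the 21 further coregulators the groups did not overlap in CPM for 3 (14.3%), beside 16.9% of all genes.

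**Figure D5:**
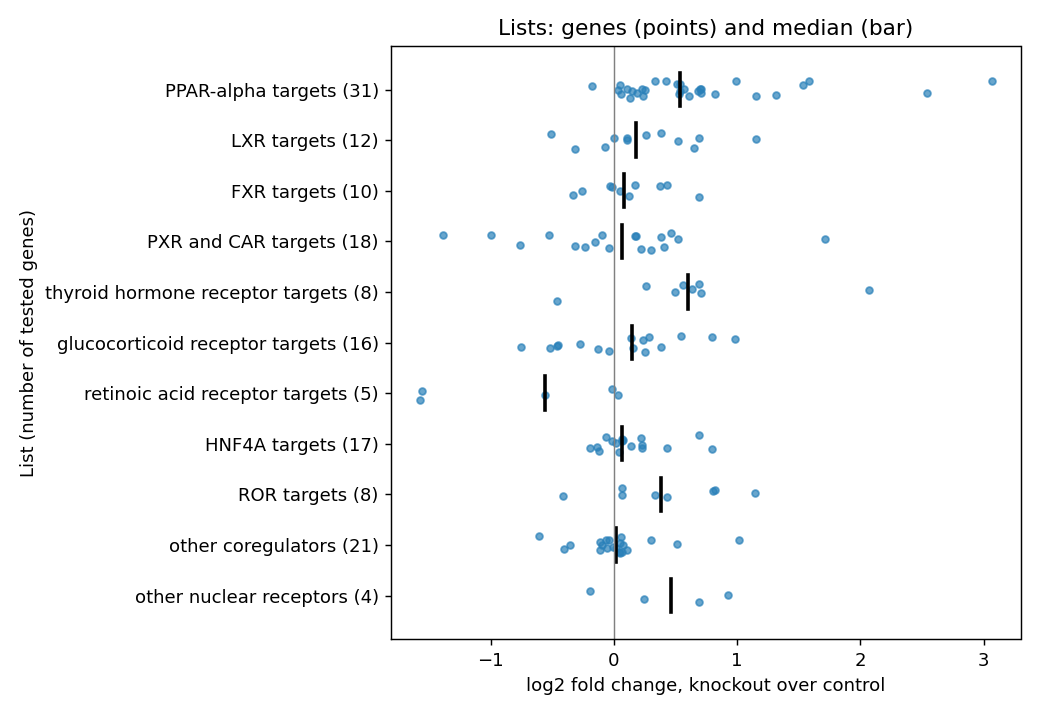
Log2 fold changes, knockout over control, of the tested genes in each target and coregulator list, with 1 point per gene and a bar at the list's median. The PPAR-alpha targets lie above 0 in 30 of 31 cases, whereas the HNF4A, FXR and further coregulator lists centre near the median of all genes, 0.01.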

How the data were processed

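Whole liver RNA was sequenced on an Illumina platform after TruSeq library preparation, per the labels' protocols. The authors deposited raw counts per gene for 6 libraries. Reads were trimmed with Trimmomatic 0.33, aligned with Subread 1.4.6-p4 and counted with featureCounts 1.4.6-p4 on mm10, per the submitters' processing notes, and the strand setting is not given in the sources used here. IDs were matched to GENCODE vM21 symbols (46488 of 46983 rows).

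Identical columns were counted once. Genes were kept by edgeR's filterByExpr (16441, including 37 members). edgeR 4.0.16 in R 4.3.3 fitted quasi-likelihood models on the counts with TMM scaling, 2-sided, and p-values were adjusted by Benjamini-Hochberg across the kept genes (threshold 0.05). CPM (TMM-scaled) and TPM (from the deposited exon lengths) were computed here. The fit was tested on simulated data. Alternatives were other scalings, no filter, DESeq2 1.42.0, limma-voom 3.58.1, a robust prior, all 6 columns, a replicate block and leaving out each library. Intervals are for the log2 fold change between the groups and were computed from the spread between these libraries, shared in part across genes. The members and lists were chosen with earlier results of these data known. Values in every library were given for the 12 members with the smallest p and the 10 with the highest control TPM, and for each target or coregulator list the 2 genes with the smallest p were named, except 2 genes that are not reported here. The hepatocyte marker Tf was not analysed here. Promoter windows came from RefSeq (GRCm38.p6).

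Replicate numbers are shared between groups by replicates 1 and 3 only. They were not used in the fit.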

Additional observations from a re-analysis of the deposited data

How the results depend on the processing

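No member was called under any of the 14 alternatives, and 20 of 37 members kept the sign of their fold change under all of them. Over all genes the count past the threshold was 1 in the edgeR fit, 3 with no low-count filter, 19 with DESeq2 and 0 with the replicate block, and between 1 and 6 when a library was left out (6 without control replicate 3). Mtdh had a log2 fold change of -4.28 with the replicate block and an adjusted p of 0.0517, so the targeted gene missed the threshold there. Deviations of same-numbered libraries from their group means correlated at 0.06 and 0.155, and those of knockout replicate 2 and control replicate 1 at 0.11. With 2 controls the deviations of one mirror those of the other. These values therefore cannot decide whether same-numbered libraries share more than a number. The cause of the shifts between alternatives was not tested. Rxrb changed sign with library totals only (0.0111), Nr2f1 with the replicate block (0.0626) and Ncoa1 with upper-quartile scaling (-0.0055). Leaving out 1 library at a time gave signs of both kinds for 17 members, with log2 fold changes from -0.36 to 0.15 for Esr1, -0.11 to 0.14 for Hnf4a, -0.22 to 0.28 for Ncoa1, -0.0516 to 0.17 for Ncor1, -0.10 to 0.51 for Nr0b2 and -0.12 to 0.27 for Nr1h2. The ranges were -0.33 to 0.0936 for Nr2c1, -0.48 to 0.17 for Nr2f1, -0.19 to 0.0079 for Nr2f2, -0.15 to 0.077 for Nr6a1, -0.11 to 0.22 for Nrip1 and -0.14 to 0.19 for Ppara. They were -0.20 to 0.0472 for Rara, -0.67 to 0.29 for Rarb, -0.19 to 0.0278 for Rora, -0.0503 to 0.0427 for Rxrb and -0.57 to 0.24 for Thra. The members' median lay between -0.07 and 0.03, changing sign with the replicate block and without control replicate 1. The medians of the PPAR-alpha, LXR, thyroid hormone receptor and HNF4A target lists kept their sign under all 14, that of PPAR-alpha targets between 0.35 and 0.74, while that of ROR targets ran from -0.56 to 0.61 and that of retinoic acid receptor targets from -1.15 to 0.18. Among members that kept their sign, Nr4a1 ran from -0.83 to -0.08, Esrra from 0.0157 to 0.44 and Nr3c1 from -0.28 to -0.03 over the 14 alternatives.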

Other observations

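Cyp7a1, the rate-limiting enzyme of bile acid synthesis, stands on several of the target lists and was named after its values were seen. It had 281, 39.2 and 307 CPM in knockout livers, against 114 and 146 CPM in control livers (log2 fold change 0.69, SE 0.75). The value of knockout replicate 2, the library that was the lowest knockout for most of the highest members, lay below both controls, and the other two knockout values lay above them.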
